A study of Homo sapiens with 16 samples.

Results

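The mRNAs of 35 lysosomal genes were followed through a SLAM-seq chase in THP-1, a cell line from a human monocytic leukaemia. The genes encode the hydrolases of the lysosome, the proteins that help those enzymes and proteins of the lysosomal membrane. They were chosen by gene symbol, with the condition that the deposited abundance column gave at least 1 CPM, a read count scaled to the size of its library. All 35 of the 35 listed symbols were found and met it, out of 60564 genes in the table and 16241 genes tested. FUCA1, at 1.11 CPM, was the member closest to the limit, and no listed gene lay under it. In SLAM-seq, 4-thiouridine (4sU) taken up into new RNA is read as T-to-C conversions, so the conversion rate of a gene is the share of its sequenced T bases that were converted. The 8 groups of 2 libraries each were ALKBH5 knockdown cells at 0, 1.5, 4.5 and 7.5 h of chase and wild-type control cells at the same times. All 16 libraries shared the pulse of 100 µM 4sU for 1 h, the wash and the chase in 10 mM uridine. ALKBH5 removes the methyl mark m6A from adenosines of RNA, and the design asks whether labelled RNA is lost at another pace when ALKBH5 is reduced. How the knockdown was made is not given in the sources used here. They also do not say whether replicates are separate cultures, and if not, p-values measure only technical spread between these libraries.

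Lysosomes are acidic organelles in which proteins, glycans, lipids and nucleic acids are broken down, and monocytes and macrophages are rich in them because they digest what they engulf. Most lysosomal hydrolases are made in the endoplasmic reticulum, tagged with mannose 6-phosphate in the Golgi and carried to endosomes by mannose 6-phosphate receptors, while membrane proteins reach the lysosome through sorting signals in their tails. Many of these genes share an E-box type element, known as the CLEAR element, that is bound by TFEB and its relatives TFE3 and MITF, through which cells raise their lysosomal capacity together.

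The promoters of CTSA, GAA, LAMP1 and CTSD are shown because they hold CACGTG, the E-box at the centre of this element, within 150 bases of the start site. CTSD has the E-box without the longer CLEAR letters. RefSeq windows from 250 bases before to 50 bases after the start site were at hand for 26 of the 35 genes. The 150 bases before the start site are printed in the gene's direction, in GRCh38.p14 coordinates, and capitals mark each CACGTG.
CTSA, chr20:45891185-45891334, plus strand: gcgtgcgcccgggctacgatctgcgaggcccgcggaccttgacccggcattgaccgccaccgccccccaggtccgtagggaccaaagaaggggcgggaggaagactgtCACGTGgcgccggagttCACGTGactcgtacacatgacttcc
GAA, chr17:80101431-80101580, plus strand: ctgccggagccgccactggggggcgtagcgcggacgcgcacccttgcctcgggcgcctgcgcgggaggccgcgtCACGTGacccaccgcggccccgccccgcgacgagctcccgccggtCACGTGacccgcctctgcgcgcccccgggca
LAMP1, chr13:113297089-113297238, plus strand: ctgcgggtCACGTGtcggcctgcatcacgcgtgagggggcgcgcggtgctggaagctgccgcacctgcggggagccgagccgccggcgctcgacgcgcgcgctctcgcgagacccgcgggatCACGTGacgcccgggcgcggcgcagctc
CTSD, chr11:1763928-1764077, minus strand: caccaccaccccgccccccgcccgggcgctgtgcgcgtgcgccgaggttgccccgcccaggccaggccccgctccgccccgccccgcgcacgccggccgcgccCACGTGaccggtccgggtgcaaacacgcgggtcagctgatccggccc
CACGTG lay in the windows of 5 of the 26 genes, CD63 being the fifth, against 7.43% of 27305 promoters of the same length. The longer TCACGTGA, which contains it, lay in 3 of the 26 (CTSA, GAA and LAMP1), against 1.04% of all promoters. The full palindrome, CACGTG with GT before it and AC after it, lay in GAA alone among the 26 and in 0.381% of all promoters. These motifs read the same on both strands. A match is a description of these letters only, and no binding was measured here.

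The depth behind each rate is unknown because the table holds rates and no base counts, and no library without 4sU was used, so the background of sequencing mismatches was not measured. The library medians over all tested genes ranged from 0.532% to 1.19% in knockdown and from 0.250% to 0.556% in control, so a shift common to most genes separated the genotypes. Between 2.39% and 12.9% of tested genes were listed at 0 in a library, and replicates of a group had Spearman correlations across genes, which are not independent replicates, of 0.359 to 0.739. The table marks its columns with S or C, and S was read as knockdown only because C is the initial of control. ALKBH5 itself had rates between 0.108% and 3.31% in knockdown and between 0.0982% and 0.812% in control, which checks nothing about its amount, since a rate is a share of a gene's RNA and carries no abundance. Of the 10 myeloid markers listed, LYZ (1276 CPM), SPI1 (48.4 CPM) and CD33 (29.8 CPM) were among those detected, ITGAM was at 1.93 CPM and MPO at 0.185 CPM. The T and B cell markers CD3D, CD8A, MS4A1 and CD79A, the globins HBB and HBA1 and the fibroblast markers COL1A2 and DCN were at 0, while CD4 (23.6 CPM) and ALB (7.88 CPM) were not. The CPM column comes from a library or pool that the table does not name, so these markers could not be compared between genotypes and their part in the results was not tested.

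At the end of the pulse, lysosomal mRNAs carried less label than most genes in both genotypes. At 0 h the median of the 35 mean rates was 0.660% in knockdown, where the median of all tested genes was 1.22%, and 30 of the 35 lay below it. In control the median was 0.334%, where all genes had 0.580%, and 27 of the 35 lay below it. Members were also lower than other genes of like abundance. Among genes of 50 to 200 CPM, 13 lysosomal mRNAs had a median of 0.513% in knockdown and 0.305% in control, while the 2115 tested genes of that band had 1.06% in knockdown and 0.476% in control. In the 4 members of at least 200 CPM the medians were 0.366% in knockdown and 0.225% in control, below the 0.529% in knockdown and 0.242% in control of all 802 genes of that band. By role, the 11 glycosidases and sulfatases had the higher rates, with a median of 1.00% in knockdown and 0.680% in control. The 8 cathepsins had medians of 0.520% in knockdown and 0.290% in control, the 8 lipid-handling proteins 0.429% in knockdown and 0.297% in control, and the 6 membrane proteins 0.496% in knockdown and 0.274% in control. LIPA, the acid lipase that cuts cholesteryl esters and triglycerides, had the lowest mean rate of a gene that was above 0 in all 4 libraries of that time, 0.0616% in knockdown and 0.0519% in control. These role groups were drawn up with the values known, and no test was made between them.

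**Figure D1:**
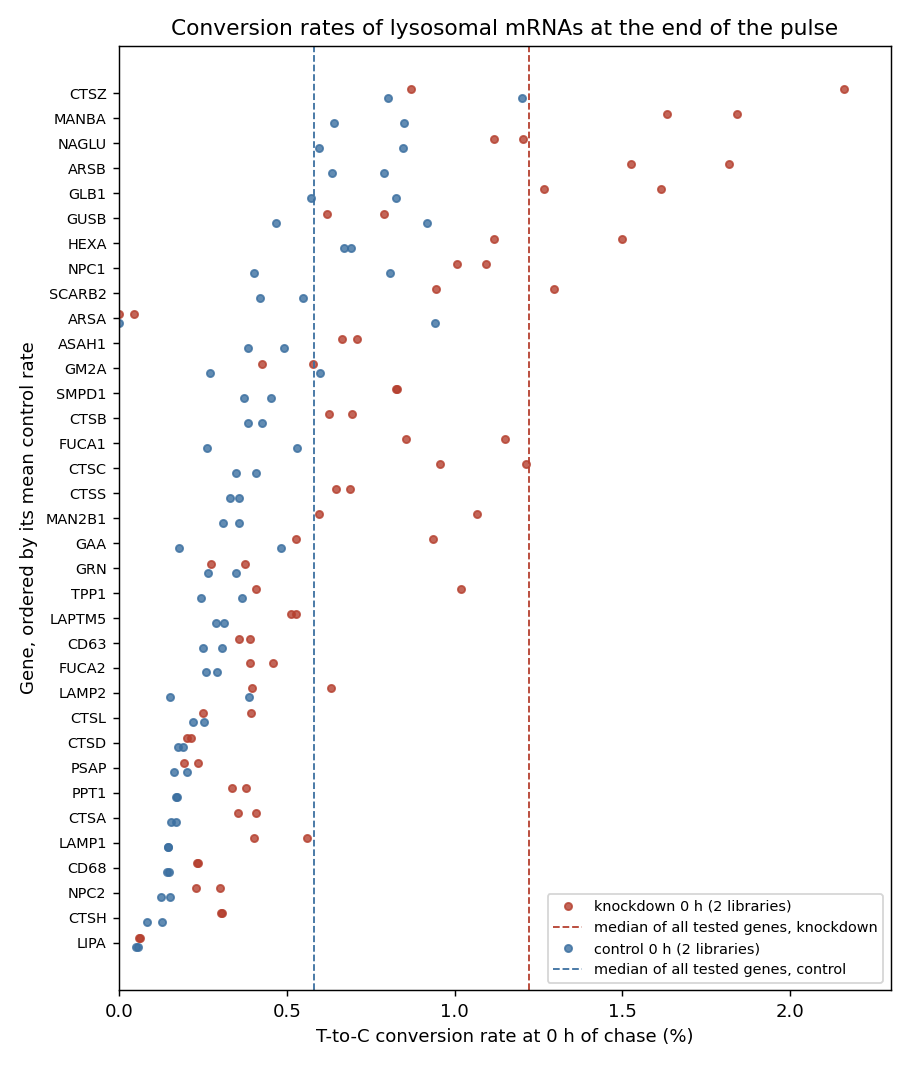
T-to-C conversion rate at 0 h of chase, in percent, of the 35 lysosomal mRNAs, with 1 point per library (2 knockdown, red; 2 control, blue) and genes ordered by their mean control rate. Dashed lines are the medians of all 16241 tested genes, 1.22% in knockdown and 0.580% in control; most genes lie left of the line of their own genotype, and LIPA lies at the low end.

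Over the whole chase, 30 of the 35 mRNAs were more highly converted in knockdown than in control and none less. The background was similar in direction, with 69.6% of all 16241 tested genes called higher and 0.172% lower. The share called higher rose with abundance, and members lay near the share of their band. From 1 to 10 CPM 3 of 7 members were called higher, against 49.8% of all genes. From 10 to 50 CPM 11 of 11 were (87.0%), from 50 to 200 CPM 12 of 13 (94.4%) and at 200 CPM or more 4 of 4 (96.3%). The genotype effect is knockdown minus control in log2(rate in percent + 0.05) with the 4 times as a factor, tested with limma and called at a Benjamini-Hochberg adjusted p under 0.05 over all tested genes. The pseudocount understates differences between low rates. The median effect of the 35 was 0.81 log2, against 1.02 for all tested genes, and 27 of the 35 lay below that median. A genotype effect of 2.20 (SE 0.393, limma adjusted p = 0.000166) in FUCA1, a fucosidase, was the highest value, followed by 1.34 in ARSB, 1.27 in LAMP1, 1.19 in CTSC and 1.17 in TPP1. The 5 genes that did not pass were GRN (-0.13), GM2A (0.46), GAA (0.63), CTSZ (0.87) and ARSA (0.96). Among the 30 calls, HEXA's ended without knockdown 4.5 h replicate 1 (adjusted p = 0.0515), and those of NAGLU and CTSD ended without 3 and 5 of the libraries, with p reaching 0.0555 and 0.0648.

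Relative to the common shift, 9 of the 35 mRNAs were lower in knockdown and none was higher, while 4.59% of all tested genes were lower and 1.45% higher. For these centred values each library was first set to its own median log2 rate, which took 1.05 log2 from every genotype effect. The 9 were GRN, LIPA, CTSD, NPC2, CTSB, PSAP, CD63, CD68 and ASAH1, with values of -1.18 in GRN, -0.76 in LIPA, -0.68 in CTSD, -0.64 in NPC2, -0.57 in CTSB, -0.55 in PSAP, -0.48 in CD63, -0.47 in CD68 and -0.37 in ASAH1. All but GRN were still higher in knockdown on the uncentred scale, by less than the median of all genes. The median of the 35 was -0.24, against -0.025 for all genes. The count varied with abundance and with the level of the rate. From 50 to 200 CPM 6 of 13 members were called lower, against 7.42% of all genes. At 200 CPM or more 3 of 4 were, against 14.8%. From 1 to 10 CPM 0 of 7 were (2.90% of all genes), and from 10 to 50 CPM 0 of 11 (4.55%). Among the 442 genes of at least 10 CPM whose rate averaged under 0.2% over the 16 libraries, 52.9% were called lower, and LIPA was the only member there. In the band from 0.2% to 0.4% the share was 7.98% of 1002 genes, with 6 of 11 members called lower and medians of -0.47 for the members and -0.074 for all genes. From 0.4% to 0.8% it was 2.79% of 3982 genes, with 2 of 16 members lower and medians of -0.18 for the members and 0.032 for all genes. CD68's call ended with a pseudocount of 0.01 (adjusted p = 0.0687). ASAH1's call ended without control 0 h replicate 2 or either control 1.5 h replicate, with an adjusted p of up to 0.0941 over these and the fit without a variance trend.

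**Figure D2:**
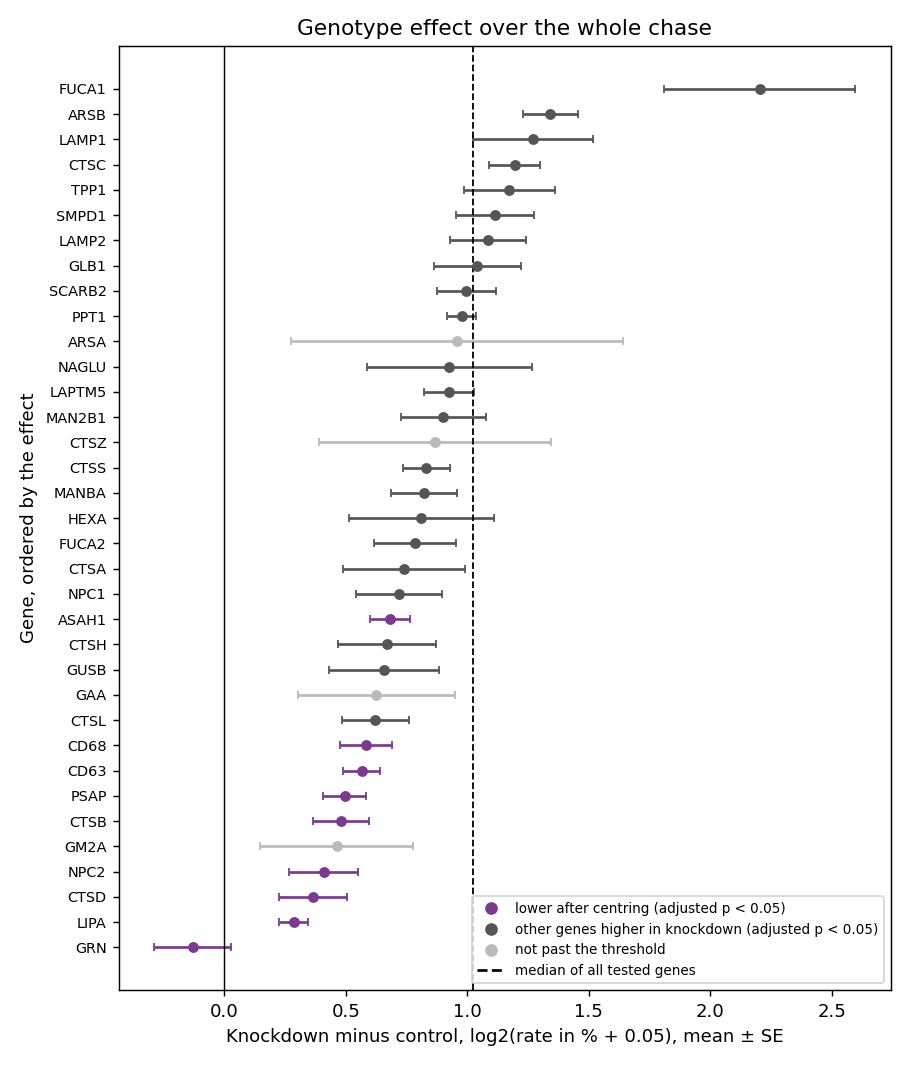
Genotype effect over the whole chase, knockdown minus control in log2(rate in percent + 0.05), mean ± SE of the limma fit over 16 libraries, for the 35 lysosomal mRNAs. The dashed line is the median of all tested genes at 1.02; GRN alone lies below 0, and the 9 purple genes were called lower after centring.

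During the chase, 15 of the 35 mRNAs lost label in knockdown, with 2 rising and 18 not past the test, and 13 lost label in control, with 1 rising and 21 not past the test. Among all tested genes 37.9% fell and 4.06% rose in knockdown, and 34.4% fell and 3.45% rose in control. The slope is the change of log2(rate in percent + 0.05) per hour of chase. Both slopes came from 1 limma fit over all 16 libraries, with a spread shared by the genotypes. A slope call in 1 genotype therefore depends on the libraries of both. The median slope of the 35 was -0.065 per hour in knockdown, against -0.13 for all tested genes, and -0.061 in control, against -0.11. Slopes varied with the level of the rate, and members did not lie above other genes of like rate. Among genes of at least 10 CPM averaging 0.4% to 0.8%, medians in knockdown were -0.14 for 16 members and -0.11 for all. In control both were -0.095. From 0.2% to 0.4% they were 0.040 for 11 members and 0.059 for all in knockdown, and -0.0038 and 0.051 in control. In that band 32.5% of genes rose in knockdown and 26.5% in control, with 1 of 11 members rising in each (CTSD, then NPC2). Falling shares there were 9.18% and 6.69%, with 2 of 11 members in each. From 0.4% to 0.8%, 12 of 16 members fell in knockdown (48.4% of genes) and 9 in control (43.6%). Under 0.2%, where LIPA was the only member, 10.9% of genes rose in knockdown. The 10 genes that fell in both genotypes were CTSS, GLB1, GUSB, MANBA, ARSB, NPC1, TPP1, PPT1, SMPD1 and SCARB2. CTSB, CTSC, HEXA, NAGLU and MAN2B1 passed in knockdown alone and CTSZ, FUCA1 and LAPTM5 in control alone, and the test of the difference, given further on, was passed by none of them. No call was made in either genotype for 14 genes, among them LAMP1, LAMP2, CD63, CD68, PSAP, ASAH1 and GRN. Without knockdown 7.5 h replicate 2 the knockdown count became 10 falling and 1 rising, and without control 7.5 h replicate 1 the control count became 8 falling and 1 rising.

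The share of the 0 h rate that was left at 7.5 h shows the same range. Its median over the 35 was 73.4% in knockdown, against 50.6% for all genes with a 0 h rate above 0, and 69.3% in control, against 53.8%. In knockdown 14 of the 35 were above 100% and 14 were under 50%, and in control 10 were above 100% and 11 were under 50%. Of all genes with a 0 h rate above 0, 25.5% were above 100% and 49.6% under 50% in knockdown. In control 26.9% were above 100% and 47.1% under 50%. Members were not compared here with genes of like rate. The 11 glycosidases and sulfatases had medians of 36.4% in knockdown and 45.3% in control. The 6 membrane proteins had medians of 117% in knockdown and 116% in control. A rate falls both when labelled RNA is lost and when new unlabelled RNA is made, so it is not a half-life.

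When each library was centred on its own median, 14 of the 35 slopes rose and 1 fell in knockdown, and 18 rose and none fell in control. Over all genes the shares were 17.7% rising and 8.62% falling in knockdown, and 17.6% rising and 9.46% falling in control. The rising share grew with abundance. From 10 to 50 CPM it was 17.5% in knockdown and 16.7% in control, with 2 and 3 of 11 members rising. From 50 to 200 CPM it was 40.0% and 41.2%, with 7 and 10 of 13 members rising. At 200 CPM or more it was 70.3% and 71.2%, with all 4 members rising in both genotypes. The split among the 35 also depended on which genes set the centre. With libraries centred on genes of at least 50 CPM, 11 rose and 2 fell in knockdown, and 6 rose and 3 fell in control. The 1 that fell under the first centring was MANBA in knockdown, at -0.12 per hour (limma adjusted p = 0.0200). That call ended without either knockdown 0 h library and with no CPM minimum (adjusted p up to 0.280).

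**Figure D3:**
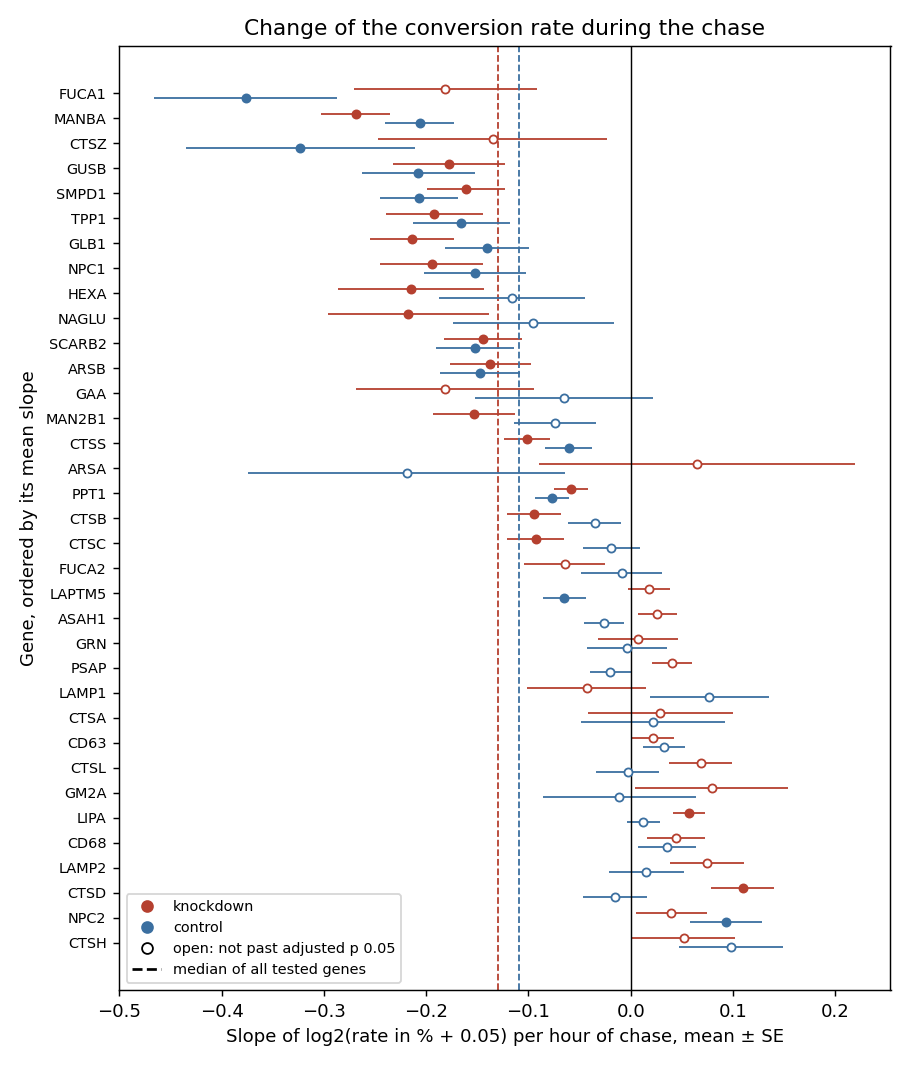
Slope of log2(rate in percent + 0.05) per hour of chase, mean ± SE, in knockdown (red) and control (blue) for the 35 lysosomal mRNAs; filled points passed an adjusted p of 0.05. Dashed lines are the medians of all tested genes, -0.13 in knockdown and -0.11 in control; glycosidases such as MANBA, GUSB and GLB1 lie among the falling genes, and LIPA, CTSD and NPC2 hold the filled points right of 0.

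The cathepsins are the proteases of the lysosome. CTSA is a serine carboxypeptidase that also protects other lysosomal enzymes, CTSD is an aspartic protease, and CTSB, CTSC, CTSH, CTSL, CTSS and CTSZ are cysteine proteases. Of the 8, 7 had higher rates in knockdown over the chase, where 69.6% of all tested genes did. CTSD and CTSB were called lower after centring, as were 4.59% of all tested genes. The genotype effects of the 8 ran from 0.37 in CTSD to 1.19 in CTSC. In knockdown the mean rates of CTSA, CTSD, CTSH and CTSL were higher at 7.5 h than at 0 h.

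CTSD (ENSG00000117984) lies on chromosome 11, from 1752752 to 1764573 on the minus strand (GENCODE 29, GRCh38). In the knockdown libraries CTSD had rates of 0.202% and 0.213% when the chase began, 0.223% and 0.216% after 1.5 h, 0.349% and 0.281% after 4.5 h and 0.431% and 0.352% after 7.5 h. Control libraries had 0.189% and 0.176% when the chase began, 0.218% and 0.190% after 1.5 h, 0.244% and 0.348% after 4.5 h and 0.157% and 0.142% after 7.5 h. Both knockdown libraries lay above both control libraries at the first and last times, and the genotypes overlapped in between. The slope was 0.11 (SE 0.0312, limma adjusted p = 0.00999) per hour in knockdown, which ended without knockdown 7.5 h replicate 1 (adjusted p = 0.0581), and -0.015 (SE 0.0312, limma adjusted p = 0.743) in control. The annotation places 41.7% of CTSD's exon bases under AC068580.4 on the same strand, so reads of that stretch could have been counted for either gene.

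CTSB (ENSG00000164733) lies on chromosome 8. CTSB rates in knockdown were 0.625% and 0.695% when the chase began, 0.659% and 0.623% after 1.5 h, 0.476% and 0.451% after 4.5 h and 0.468% and 0.344% after 7.5 h. In control they were 0.385% and 0.427% when the chase began, 0.459% and 0.318% after 1.5 h, 0.479% and 0.257% after 4.5 h and 0.337% and 0.319% after 7.5 h. At 4.5 h the genotypes overlapped, with 1 control library above both knockdown libraries. The knockdown slope was -0.095 (SE 0.0261, limma adjusted p = 0.00815) per hour, a call that ended without knockdown 7.5 h replicate 2 (adjusted p = 0.0638), and the control slope was -0.035 (SE 0.0261, limma adjusted p = 0.317).

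CTSC (ENSG00000109861) lies on chromosome 11, from 88293592 to 88337787 on the minus strand. CTSC is a dipeptidyl peptidase that activates serine proteases of granules. Knockdown libraries showed 0.957% and 1.21% when the chase began, 1.26% and 1.36% after 1.5 h, 0.975% and 0.919% after 4.5 h and 0.666% and 0.748% after 7.5 h. The control libraries gave 0.407% and 0.347% when the chase began, 0.427% and 0.481% after 1.5 h, 0.379% and 0.519% after 4.5 h and 0.285% and 0.419% after 7.5 h. The knockdown libraries lay above the control libraries at every time, without overlap. Knockdown minus control came to 1.19 (SE 0.105, limma adjusted p = 1.66e-07), which after centring was 0.15 (SE 0.09997, limma adjusted p = 0.470). The knockdown slope was -0.093 (SE 0.0279, limma adjusted p = 0.0135) per hour and ended without knockdown 7.5 h replicate 1 (adjusted p = 0.0848), while the control slope was -0.019 (SE 0.0279, limma adjusted p = 0.636).

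CTSS (ENSG00000163131) lies on chromosome 1, from 150730196 to 150765957 on the minus strand. CTSS trims the invariant chain of MHC class II molecules in antigen-presenting cells. The rates of CTSS in knockdown cells stood at 0.688% and 0.645% when the chase began, 0.664% and 0.635% after 1.5 h, 0.444% and 0.587% after 4.5 h and 0.340% and 0.425% after 7.5 h. Control cells had 0.358% and 0.330% when the chase began, 0.278% and 0.323% after 1.5 h, 0.268% and 0.250% after 4.5 h and 0.189% and 0.287% after 7.5 h. All knockdown values were above the control values of the same time. CTSS lost label in both genotypes, with slopes of -0.10 (SE 0.0229, limma adjusted p = 0.00208) per hour in knockdown and -0.061 (SE 0.0229, limma adjusted p = 0.0463) in control. The control call was at the margin, as 11 of the 16 fits that left out 1 library ended it, with an adjusted p of up to 0.274 over all alternatives.

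CTSH is an aminopeptidase and CTSL an endopeptidase. CTSH (ENSG00000103811) lies on chromosome 15, from 78921058 to 78949574 on the minus strand. In the knockdown libraries CTSH had rates of 0.306% and 0.303% when the chase began, 0.336% and 0.321% after 1.5 h, 0.304% and 0.344% after 4.5 h and 0.502% and 0.369% after 7.5 h. Control libraries had 0.128% and 0.0833% when the chase began, 0.232% and 0.251% after 1.5 h, 0.329% and 0.150% after 4.5 h and 0.471% and 0.126% after 7.5 h. In control the replicates of CTSH spread more widely than in knockdown at every time, most of all at 4.5 h and 7.5 h. At those later times 1 control library overlapped the knockdown values.

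CTSL (ENSG00000135047) lies on chromosome 9, from 87725519 to 87731393 on the plus strand. CTSL rates in knockdown were 0.250% and 0.391% when the chase began, 0.358% and 0.299% after 1.5 h, 0.432% and 0.401% after 4.5 h and 0.363% and 0.571% after 7.5 h. In control they were 0.221% and 0.253% when the chase began, 0.209% and 0.239% after 1.5 h, 0.257% and 0.170% after 4.5 h and 0.187% and 0.290% after 7.5 h. CTSL overlapped between genotypes at 0 h and was higher in both knockdown libraries at the later times. The knockdown slope of CTSL was 0.068 (SE 0.0309, limma adjusted p = 0.0867) per hour and its control slope -0.0028 (SE 0.0309, limma adjusted p = 0.960). CTSH had slopes of 0.052 (SE 0.0506, limma adjusted p = 0.442) in knockdown and 0.098 (SE 0.0506, limma adjusted p = 0.143) in control.

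CTSA (ENSG00000064601) lies on chromosome 20, from 45890144 to 45898820 on the plus strand. Knockdown libraries showed 0.407% and 0.353% when the chase began, 0.465% and 0.745% after 1.5 h, 0.332% and 0.590% after 4.5 h and 0.811% and 0.344% after 7.5 h. The control libraries gave 0.170% and 0.154% when the chase began, 0.724% and 0.252% after 1.5 h, 0.243% and 0.298% after 4.5 h and 0.136% and 0.472% after 7.5 h. At 1.5 h the control replicates of CTSA lay further apart than the means of the genotypes, and the genotypes overlapped at 1.5 h and 7.5 h. Neither slope passed, at 0.029 (SE 0.0707, limma adjusted p = 0.776) in knockdown and 0.022 (SE 0.0707, limma adjusted p = 0.844) in control.

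CTSZ (ENSG00000101160) lies on chromosome 20, from 58995185 to 59007247 on the minus strand. The rates of CTSZ in knockdown cells stood at 0.871% and 2.16% when the chase began, 0.915% and 0.915% after 1.5 h, 1.54% and 0.700% after 4.5 h and 0.819% and 0.373% after 7.5 h. Control cells had 1.201% and 0.8003% when the chase began, 1.05% and 0.507% after 1.5 h, 0.333% and 0.826% after 4.5 h and 0% and 0.568% after 7.5 h. CTSZ had the highest 0 h control rate of the 35, and its genotypes overlapped at every time. Its abundance was 3.07 CPM, and control 7.5 h replicate 1 was listed at 0. The control slope of -0.32 (SE 0.112, limma adjusted p = 0.0320) per hour rested on that library and on both first replicates of control at 0 h and 1.5 h, since leaving out any of the 3 ended the call (adjusted p up to 0.388 over the alternatives).

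Glycosidases and sulfatases strip sugars and sulfate groups from glycoproteins, glycolipids and glycosaminoglycans, 1 unit at a time, and loss of single members causes lysosomal storage diseases. Of the 11, 9 had higher rates in knockdown, and none passed the centred test in either direction, with a median centred effect of -0.15. For all tested genes the shares were 69.6% higher and, centred, 4.59% lower and 1.45% higher. In knockdown 7 of the 11 lost label during the chase, where 37.9% of all tested genes did, and in control 5 did, where 34.4% of all tested genes did. None of the 11 rose in either genotype. The rates at 0 h ran from 0.0223% in ARSA to 1.74% in MANBA in knockdown.

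MANBA (ENSG00000109323) lies on chromosome 4, from 102630770 to 102760994 on the minus strand. MANBA is the beta-mannosidase that removes the last mannose of N-linked glycans. In the knockdown libraries MANBA had rates of 1.63% and 1.84% when the chase began, 1.00% and 0.961% after 1.5 h, 0.528% and 0.601% after 4.5 h and 0.378% and 0.354% after 7.5 h. Control libraries had 0.639% and 0.849% when the chase began, 0.479% and 0.529% after 1.5 h, 0.257% and 0.5997% after 4.5 h and 0.206% and 0.190% after 7.5 h. Every knockdown value was above the control values of its time except at 4.5 h, where 1 control library, at 0.5997%, lay between the knockdown libraries. MANBA had the steepest knockdown slope of the 35, -0.27 (SE 0.0337, limma adjusted p = 1.33e-05) per hour, and a control slope of -0.21 (SE 0.0337, limma adjusted p = 0.000180). At 7.5 h its rate was 21.1% of the 0 h rate in knockdown and 26.6% in control.

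GLB1 (ENSG00000170266) lies on chromosome 3, from 32996608 to 33097230 on the minus strand. GLB1 is the beta-galactosidase that acts on gangliosides and keratan sulfate. GLB1 rates in knockdown were 1.62% and 1.27% when the chase began, 1.14% and 1.40% after 1.5 h, 1.10% and 0.558% after 4.5 h and 0.371% and 0.538% after 7.5 h. In control they were 0.572% and 0.824% when the chase began, 0.431% and 0.476% after 1.5 h, 0.415% and 0.217% after 4.5 h and 0.294% and 0.299% after 7.5 h. The knockdown libraries were above the control libraries at every time. The slope was -0.21 (SE 0.0413, limma adjusted p = 0.000624) per hour in knockdown and -0.14 (SE 0.0413, limma adjusted p = 0.0134) in control, where the call ended without control 0 h replicate 2 (adjusted p = 0.0716).

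FUCA1 (ENSG00000179163) lies on chromosome 1, from 23845077 to 23868294 on the minus strand. FUCA1 removes fucose from glycoproteins and glycolipids. Knockdown libraries showed 0.856% and 1.15% when the chase began, 0.734% and 0.810% after 1.5 h, 0.265% and 1.01% after 4.5 h and 0.342% and 0.358% after 7.5 h. The control libraries gave 0.530% and 0.261% when the chase began, 0.0970% and 0.166% after 1.5 h, 0.0675% and 0.0644% after 4.5 h and 0% and 0% after 7.5 h. All knockdown values lay above the control values of their time, and both control libraries were listed at 0 at 7.5 h. The effect of the knockdown was 2.20 (SE 0.393, limma adjusted p = 0.000166) and the control slope -0.38 (SE 0.0894, limma adjusted p = 0.00347) per hour. The knockdown slope was -0.18 (SE 0.0894, limma adjusted p = 0.117). FUCA1 has 1.11 CPM, the depth behind its rates listed at 0 is unknown, and its fitted effect depends on the pseudocount, with 1.39 at a pseudocount of 0.2 and 2.97 at 0.01.

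NAGLU (ENSG00000108784) lies on chromosome 17, from 42536172 to 42544449 on the plus strand. NAGLU cuts N-acetylglucosamine from heparan sulfate. The rates of NAGLU in knockdown cells stood at 1.203% and 1.12% when the chase began, 1.07% and 1.07% after 1.5 h, 1.27% and 1.06% after 4.5 h and 0.266% and 0.333% after 7.5 h. Control cells had 0.596% and 0.845% when the chase began, 0.396% and 0.375% after 1.5 h, 0.391% and 0.148% after 4.5 h and 0.236% and 0.654% after 7.5 h. The 2 knockdown values at 7.5 h lay between the 2 control values of that time, whereas at the earlier times all knockdown values were higher. The knockdown slope was -0.22 (SE 0.0788, limma adjusted p = 0.0358) per hour, a call that 5 of the 16 fits without 1 library ended, and the control slope was -0.095 (SE 0.0788, limma adjusted p = 0.375).

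HEXA, the alpha subunit of beta-hexosaminidase, had -0.21 per hour in knockdown (limma adjusted p = 0.0239), lost without knockdown 0 h replicate 1 or knockdown 7.5 h replicate 2, and -0.12 in control (adjusted p = 0.223). GUSB, the beta-glucuronidase, had -0.18 in knockdown and -0.21 in control, the knockdown call ending without knockdown 7.5 h replicate 2 and the control call without control 7.5 h replicate 1. ARSB, which removes sulfate from dermatan and chondroitin sulfate, had -0.14 in knockdown and -0.15 in control, and kept both calls when any 1 library was left out. MAN2B1, the alpha-mannosidase, fell by 0.15 per hour in knockdown, a call that ended without knockdown 7.5 h replicate 1. FUCA2, a second fucosidase, and GAA, which cuts glycogen, passed in neither genotype. ARSA, which removes sulfate from sulfatides, was listed at 0 in 7 of 8 control libraries and in 2 of 8 knockdown libraries at 2.75 CPM, so its fitted values depend on the pseudocount.

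Among the 8 proteins that handle lipids, 3 fell, 1 rose and 4 had no slope call in each genotype. The shares over all tested genes were 37.9% falling and 4.06% rising in knockdown, and 34.4% falling and 3.45% rising in control. Rises were more common among genes of at least 10 CPM with like rates. In the band of LIPA, under 0.2%, 10.9% rose in knockdown. In that of NPC2, from 0.2% to 0.4%, 26.5% rose in control. PSAP and GM2A yield or act as activators that present sphingolipids to hydrolases, ASAH1 cuts ceramide, SMPD1 cuts sphingomyelin, LIPA cuts cholesteryl esters, NPC1 and NPC2 pass cholesterol out of the lysosome, and PPT1 removes palmitate from proteins. Of these 8, 7 had higher rates in knockdown, where 69.6% of all tested genes did. After centring 4 of them (LIPA, NPC2, PSAP and ASAH1) were called lower, against 4.59% of all tested genes. SMPD1, PPT1 and NPC1 lost label in both genotypes, LIPA rose in knockdown and NPC2 rose in control.

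LIPA (ENSG00000107798) lies on chromosome 10, from 89213569 to 89414557 on the minus strand. In the knockdown libraries LIPA had rates of 0.0630% and 0.0602% when the chase began, 0.0779% and 0.0756% after 1.5 h, 0.0768% and 0.0894% after 4.5 h and 0.0985% and 0.111% after 7.5 h. Control libraries had 0.0547% and 0.0490% when the chase began, 0.0717% and 0.0589% after 1.5 h, 0.0452% and 0.0468% after 4.5 h and 0.0653% and 0.0694% after 7.5 h. Each knockdown pair lay above the control pair of its time, by a small margin in percentage points. Its genotype effect was 0.28 (SE 0.0590, limma adjusted p = 0.000591) and, centred, -0.76 (SE 0.0655, limma adjusted p = 3.16e-06). In knockdown the rate rose, with a slope of 0.057 (SE 0.0160, limma adjusted p = 0.00921) per hour that ended without knockdown 7.5 h replicate 2 (adjusted p up to 0.0611 over the alternatives), and in control the slope was 0.013 (SE 0.0160, limma adjusted p = 0.585). With rates this close to the pseudocount and with no unlabelled library, how much of LIPA's rate is mismatch background was not tested.

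PSAP (ENSG00000197746) lies on chromosome 10, from 71816298 to 71851375 on the minus strand. PSAP rates in knockdown were 0.235% and 0.193% when the chase began, 0.270% and 0.268% after 1.5 h, 0.301% and 0.265% after 4.5 h and 0.286% and 0.289% after 7.5 h. In control they were 0.163% and 0.202% when the chase began, 0.157% and 0.2001% after 1.5 h, 0.162% and 0.170% after 4.5 h and 0.172% and 0.148% after 7.5 h. The genotypes overlapped at 0 h and were apart at the 3 later times. Over the chase the genotype effect was 0.50 (SE 0.0883, limma adjusted p = 0.000166) and, centred, -0.55 (SE 0.0910, limma adjusted p = 0.00175). The slope was 0.040 (SE 0.0198, limma adjusted p = 0.114) per hour in knockdown and -0.020 (SE 0.0198, limma adjusted p = 0.471) in control.

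NPC2 (ENSG00000119655) lies on chromosome 14, from 74476192 to 74494177 on the minus strand. Knockdown libraries showed 0.301% and 0.228% when the chase began, 0.210% and 0.411% after 1.5 h, 0.319% and 0.359% after 4.5 h and 0.257% and 0.431% after 7.5 h. The control libraries gave 0.150% and 0.125% when the chase began, 0.236% and 0.233% after 1.5 h, 0.269% and 0.213% after 4.5 h and 0.228% and 0.361% after 7.5 h. NPC2 was higher in both knockdown libraries at 0 h and 4.5 h and overlapped at 1.5 h and 7.5 h. Its control slope was 0.093 (SE 0.0348, limma adjusted p = 0.0449) per hour, the only rise among the 35 in control, and 7 of the 16 fits without 1 library ended it (adjusted p up to 0.211 over the alternatives). Its knockdown slope was 0.040 (SE 0.0348, limma adjusted p = 0.388). NPC1, its membrane-bound partner, fell in both genotypes, with -0.19 per hour in knockdown (limma adjusted p = 0.00510) and -0.15 in control (adjusted p = 0.0240), where the call ended when control 0 h replicate 2 or control 7.5 h replicate 1 was left out.

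SMPD1 (ENSG00000166311) lies on chromosome 11, from 6390431 to 6394998 on the plus strand. The rates of SMPD1 in knockdown cells stood at 0.824% and 0.827% when the chase began, 0.831% and 0.668% after 1.5 h, 0.623% and 0.517% after 4.5 h and 0.312% and 0.338% after 7.5 h. Control cells had 0.452% and 0.372% when the chase began, 0.471% and 0.317% after 1.5 h, 0.221% and 0.109% after 4.5 h and 0.118% and 0.135% after 7.5 h. The knockdown values were above the control values at every time. The slopes were -0.16 (SE 0.0385, limma adjusted p = 0.00311) per hour in knockdown and -0.21 (SE 0.0385, limma adjusted p = 0.000550) in control, and both calls held when any 1 library was left out.

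PPT1 (ENSG00000131238) lies on chromosome 1, from 40071461 to 40097727 on the minus strand. In the knockdown libraries PPT1 had rates of 0.336% and 0.379% when the chase began, 0.376% and 0.360% after 1.5 h, 0.270% and 0.313% after 4.5 h and 0.278% and 0.247% after 7.5 h. Control libraries had 0.170% and 0.172% when the chase began, 0.206% and 0.134% after 1.5 h, 0.115% and 0.108% after 4.5 h and 0.111% and 0.101% after 7.5 h. The genotypes of PPT1 did not overlap at any time. The genotype effect was 0.98 (SE 0.0613, limma adjusted p = 5.15e-09). The slopes were -0.058 (SE 0.0168, limma adjusted p = 0.0107) per hour in knockdown, which ended without knockdown 7.5 h replicate 2, and -0.077 (SE 0.0168, limma adjusted p = 0.00196) in control. CAP1, on the opposite strand, covers 23.4% of PPT1's exon bases at 4421 CPM, and since the strand setting of the counting is not given in the sources used here, reads of the 2 genes cannot be told apart there. TPP1, the tripeptidyl peptidase whose loss, like that of PPT1, causes a childhood form of neuronal ceroid lipofuscinosis, fell by 0.19 per hour in knockdown and by 0.17 in control (limma adjusted p = 0.00400 in knockdown and 0.0116 in control), the control call ending without control 0 h replicate 1.

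Of the 6 membrane proteins, SCARB2 fell in knockdown, where 37.9% of all tested genes did. SCARB2 and LAPTM5 fell in control, where 34.4% did. LAMP1 and LAMP2 are the heavily glycosylated proteins that line the lysosomal membrane, and CD68 is a macrophage glycoprotein related to them. CD63 is a tetraspanin of late endosomes, LAPTM5 is a transmembrane protein of blood cells, and SCARB2 carries glucocerebrosidase to the lysosome. All 6 had higher rates in knockdown, as did 69.6% of all tested genes. CD63 and CD68 were called lower after centring, as were 4.59% of all tested genes. SCARB2 lost label in both genotypes, with -0.14 per hour in knockdown (limma adjusted p = 0.00596) and -0.15 in control (adjusted p = 0.00477). LAPTM5 fell by 0.065 per hour in control (adjusted p = 0.0212), a call that ended without control 7.5 h replicate 1, and had 0.018 in knockdown (adjusted p = 0.527).

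CD63 (ENSG00000135404) lies on chromosome 12, from 55725323 to 55729707 on the minus strand. CD63 rates in knockdown were 0.391% and 0.358% when the chase began, 0.487% and 0.534% after 1.5 h, 0.582% and 0.478% after 4.5 h and 0.430% and 0.470% after 7.5 h. In control they were 0.307% and 0.249% when the chase began, 0.280% and 0.282% after 1.5 h, 0.260% and 0.323% after 4.5 h and 0.356% and 0.323% after 7.5 h. The knockdown values were above the control values at all 4 times. For CD63 the genotype effect was 0.56 (SE 0.0763, limma adjusted p = 1.22e-05) and, centred, -0.48 (SE 0.0688, limma adjusted p = 0.000496), and neither slope passed, at 0.022 (SE 0.0206, limma adjusted p = 0.422) in knockdown and 0.032 (SE 0.0206, limma adjusted p = 0.241) in control.

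LAMP1 (ENSG00000185896) lies on chromosome 13, from 113297241 to 113323672 on the plus strand. Knockdown libraries showed 0.4003% and 0.559% when the chase began, 0.490% and 0.564% after 1.5 h, 0.416% and 0.441% after 4.5 h and 0.222% and 0.662% after 7.5 h. The control libraries gave 0.145% and 0.144% when the chase began, 0.0837% and 0.0928% after 1.5 h, 0.173% and 0.377% after 4.5 h and 0.172% and 0.179% after 7.5 h. The genotypes did not overlap at any time, though knockdown 7.5 h replicate 1 came close to the control libraries. LAMP2 (ENSG00000005893) lies on chromosome X, from 120427827 to 120469365 on the minus strand. The rates of LAMP2 in knockdown cells stood at 0.396% and 0.631% when the chase began, 0.536% and 0.637% after 1.5 h, 0.632% and 0.862% after 4.5 h and 0.715% and 0.803% after 7.5 h. Control cells had 0.153% and 0.388% when the chase began, 0.280% and 0.314% after 1.5 h, 0.300% and 0.220% after 4.5 h and 0.261% and 0.333% after 7.5 h. LAMP2 did not overlap at any time either. Neither gene passed a slope test in either genotype, with slopes between -0.043 (LAMP1 in knockdown) and 0.077 (LAMP1 in control) per hour. CD68 shares 81.7% of its exon bases with AC016876.2 on the same strand, so its values may include reads of that transcript.

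GRN encodes progranulin, a secreted and lysosomal protein that is cut into granulins inside the lysosome. GRN (ENSG00000030582) lies on chromosome 17, from 44345086 to 44353102 on the plus strand. In the knockdown libraries GRN had rates of 0.273% and 0.376% when the chase began, 0.296% and 0.268% after 1.5 h, 0.331% and 0.486% after 4.5 h and 0.254% and 0.347% after 7.5 h. Control libraries had 0.264% and 0.348% when the chase began, 0.517% and 0.493% after 1.5 h, 0.251% and 0.301% after 4.5 h and 0.332% and 0.446% after 7.5 h. Both knockdown libraries lay below both control libraries at 1.5 h and above them at 4.5 h, and the genotypes overlapped at the first and last times. GRN was the only one of the 35 with a genotype effect below 0. The genotype effect was -0.13 (SE 0.158, limma adjusted p = 0.471), and the centred effect was -1.18 (SE 0.158, limma adjusted p = 0.000286), the lowest of the 35 and a call kept under all 23 alternatives. At 1.5 h alone the effect was -0.74 (SE 0.234, limma adjusted p = 0.0266), where 0.117% of all tested genes were called lower, and this call ended without any 1 of the 4 libraries of that time (adjusted p up to 0.120 over the alternatives).

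**Figure D4:**
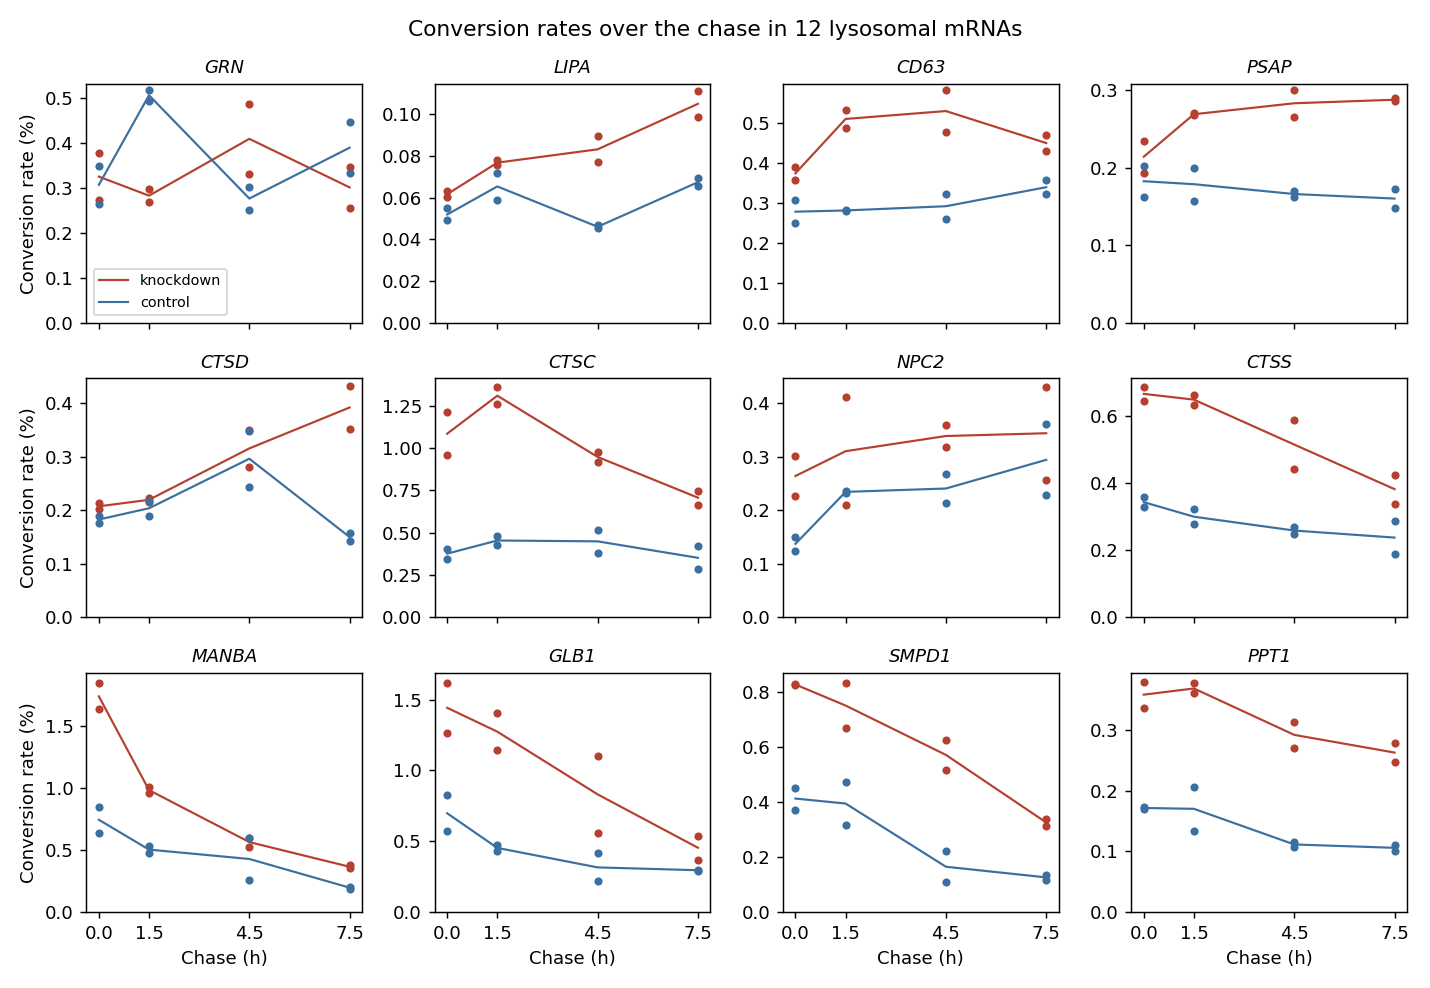
T-to-C conversion rate in percent against hours of chase for 12 lysosomal mRNAs, with 1 point per library (knockdown red, control blue) and lines through the means of 2; each panel has its own axis from 0. Most panels show knockdown above control throughout, GRN shows the lines crossing, and MANBA, GLB1 and SMPD1 fall in both genotypes while LIPA, PSAP and NPC2 do not.

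Whether the loss of label differed between genotypes was asked with the knockdown slope minus the control slope. None of the 35 passed, and none of all 16241 tested genes did (0% called). With limma, 3 of the 35 and 1269 of all genes had an unadjusted p under 0.05, and 5 and 1265 after centring. The differences ran from -0.12 per hour in NAGLU (95% interval -0.36 to 0.11) to 0.28 in ARSA (95% interval -0.18 to 0.75). For genes with tight replicates the interval was narrow, at -0.032 to 0.069 in PPT1, -0.072 to 0.051 in CD63 and -0.0036 to 0.092 in LIPA. CTSD had 0.12 (95% interval 0.031 to 0.22, limma adjusted p = 0.506) and LAPTM5 0.083 (0.020 to 0.14, adjusted p = 0.508). A count of 0 does not show that the slopes were alike.

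At the single times the calls were fewer, since each rests on 2 libraries against 2. At 0 h, 14 of the 35 were higher in knockdown and none lower, against 35.6% higher and 0.179% lower among all tested genes. At 1.5 h 19 were higher and GRN lower, against 38.9% higher and 0.117% lower. At 4.5 h 20 were higher and none lower, against 38.3% and 0.234%, and at 7.5 h 16 were higher and none lower, against 33.5% and 0.308%. The 0 h count was 8 without either knockdown 0 h library and 7, of which 1 was lower, without control 0 h replicate 1. The 7.5 h count was 8 without knockdown 7.5 h replicate 2. At 1.5 h the count was 10 without knockdown replicate 1 of that time, 8 without knockdown replicate 2, 9 without control replicate 1 and 11 without control replicate 2. The 4.5 h count was 12 without knockdown replicate 1 of that time and 13 without knockdown replicate 2 or control replicate 2. Without a test, both knockdown libraries lay above both control libraries in 28 of the 35 genes at 0 h, where 71.1% of all tested genes did, in 28 after 1.5 h (74.3%), in 26 after 4.5 h (68.2%) and in 23 after 7.5 h (58.9%). Only GRN at 1.5 h lay below in both, as did 2.14% of all genes at that time, while none of the 35 did at 0 h (2.51% of all genes), 4.5 h (2.37%) or 7.5 h (3.25%).

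After centring, LIPA, CTSD, PSAP and CD63 were lower in knockdown at 0 h (0.499% of all genes were), and GRN, CD63 and LIPA at 7.5 h (0.702%). At 1.5 h 3 of the 35 were lower (0.474%) and at 4.5 h 2 (0.640%), and none was higher at any time, against 0.0493% of all genes at 0 h, 0.0369% after 1.5 h, 0.0862% after 4.5 h and 0.4% after 7.5 h. The 0 h count was 1 without any 1 of the 4 knockdown libraries of 0 h and 1.5 h or control 0 h replicate 1, and 2 without control 0 h replicate 2 or either control 1.5 h library. The 7.5 h count was 1 without either knockdown 1.5 h library or control 7.5 h replicate 1 and 0 without knockdown 7.5 h replicate 1 or control 7.5 h replicate 2. For 4.5 h, leaving out that time's knockdown replicate 1 gave 0 and replicate 2 gave 1.

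Further genes of the lysosome were taken from 4 lists. Of 23 tested genes listed as further hydrolases, a list that also holds other enzymes, 15 were higher in knockdown. So were all 17 V-ATPase subunits, which acidify the lysosome. The same held for 22 of 26 further membrane and transport proteins and 28 of 31 sorting factors and regulators. In the 4 lists none was lower. Among all tested genes 69.6% were called higher and 0.172% lower. The median genotype effects were 1.00 log2 for the hydrolase list, 1.06 for the V-ATPase, 1.05 for the membrane proteins and 1.12 for the sorting factors. All genes had 1.02. After centring none was lower in any of the 4 lists, and 2 were higher, NAAA, an acid amidase (0.66, limma adjusted p = 0.0434), and TMEM9 (1.34, adjusted p = 0.0165), a transmembrane protein of endosomes and lysosomes. The centred shares over all tested genes were 4.59% lower and 1.45% higher.

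The chase slopes of these lists are read against the shares over all tested genes, 37.9% falling and 4.06% rising in knockdown and 34.4% falling and 3.45% rising in control. Of the 31 sorting factors and regulators 12 fell and 2 rose in knockdown, and 15 fell and 1 rose in control. No test was made between the lists. TFEC, MITF and RPTOR fell in both genotypes; TFEC and MITF are transcription factors of the TFEB family and RPTOR is a subunit of the mTORC1 kinase. MITF had a slope of -0.32 per hour in knockdown (limma adjusted p = 3.92e-06) and -0.26 in control (adjusted p = 2.93e-05). TFEC had -0.22 in knockdown (adjusted p = 8.45e-05) and -0.31 in control (adjusted p = 3.47e-06). LAMTOR1 and LAMTOR4, subunits of the Ragulator complex that anchors mTORC1 at lysosomes, rose in knockdown, with slopes of 0.17 per hour in LAMTOR1 (limma adjusted p = 0.000730) and 0.14 in LAMTOR4 (adjusted p = 0.00184).

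Among the 17 V-ATPase subunits 5 fell and 1 rose in knockdown, and 3 fell and 1 rose in control. ATP6V1H, a subunit of the cytosolic sector, had -0.26 per hour in knockdown (limma adjusted p = 1.47e-05) and -0.22 in control (adjusted p = 0.000106), while ATP6V0B, of the membrane sector, had 0.072 in knockdown (adjusted p = 0.0388) and 0.13 in control (adjusted p = 0.00137). Of the 26 further membrane proteins 12 fell and none rose in knockdown, and 9 fell and 1 rose in control. TMEM9 was the gene that rose, at 0.25 per hour (limma adjusted p = 0.0138). TPCN1, a cation channel, had -0.25 per hour in knockdown and -0.19 in control. Of the 23 genes of the hydrolase list 2 fell in knockdown and 4 in control, and none rose. HGSNAT and SUMF1, which are on that list but are not hydrolases themselves, fell in both.

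Of the GGACT letters, the most common form of the m6A consensus, the 35 mRNAs held a median of 1.14 per kilobase of the longest GENCODE 29 transcript, against 0.923 for 12345 tested protein-coding genes, and 11 of the 35 lay below the median of all. LAMP1 and LAMP2 held none, as did 984 of all. MANBA held 8 in 4238 bases, GRN 4 in 2342, LIPA 2 in 2782 and CTSD 2 in 2123. The median transcript was 2699 bases long, against 3420 for all. This is a count of letters, and no m6A was measured here.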

How the data were processed

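T-to-C conversion rates were read from the authors' deposited table, a fraction between 0 and 1 per gene and library, given here in percent; what the rate divides by is not written in the headers and was taken from the assay. The deposited table also holds 1 CPM column, per the file headers, of an unnamed library or pool: at 0.0265 CPM per read, 100% of its values below 1000 reads came out whole to within 0.1 reads. It was used to filter genes, to set the variance trend, to form abundance bands and to choose the genes of the alternative centring. The abundances of markers and overlapping genes were also read from it. CASAVA, HISAT2 2.1.0 and hg38 are named in the submitters' processing notes. Polyadenylated RNA was used, per the labels' protocols.

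The 16241 genes tested had at least 1 CPM and were not listed at 0 throughout. For log2(rate in percent + 0.05), limma 3.58.1 (R 4.3.3) gave linear models whose variance trend followed log2(CPM + 0.01), and Benjamini-Hochberg adjusted p-values over all tested genes were called under 0.05. The script was tested on simulated data for the uncentred genotype effect alone, without a shift common to most genes. Slopes came from a fit with 1 slope per genotype and single times from 8 group means. Centred values used each library minus its own median log2 rate. The genes described with every library's value were the cathepsins, the genes with the highest and lowest 0 h rates, and those with the largest calls per comparison. LAMP1, LAMP2 and GRN were added after their values were seen. The members, lists and roles were chosen with earlier results of these data known. Alternatives were other pseudocounts (0.01 and 0.2), no CPM minimum and one of 10, no variance trend, a replicate block, centring on genes of at least 50 CPM, and leaving out each library. Loci came from GENCODE 29 and promoters from RefSeq GRCh38.p14. A marker gene of the cell type list is not reported here.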

Additional observations from a re-analysis of the deposited data

How the results depend on the processing

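Higher rates in knockdown over the whole chase (30 of 35 genes) were called in 27 to 31 genes over all alternatives, and the slope difference in 0 genes under every one. With no CPM minimum, which raised the common shift of the genotype effect to 1.74 over 37510 genes, the counts were 23 for the centred effect over the chase (9 in the fit as reported), 8 at 0 h (14), 9 for the control slope (14), and, centred, 0 at 0 h (4) and 27 at 7.5 h (3). Without a variance trend the centred counts at 0 h and 7.5 h were 0 and 0, and with a pseudocount of 0.01 the centred count at 0 h was 1. Centred on genes of at least 50 CPM, 9 control slopes passed (6 rising, 3 falling) in place of 18. When 1 library was left out, the counts ran from 28 to 31 for the genotype effect, 7 to 16 at 0 h, 8 to 16 at 7.5 h, 9 to 15 for the control slope, 11 to 18 for the knockdown slope, 8 to 10 for the centred effect, 1 to 4 for it at 0 h, 0 to 3 at 7.5 h, 14 to 20 for the centred control slope and 13 to 16 for the centred knockdown slope. Replicate numbers did not pair the samples: over 28 pairs of groups the correlation of same-numbered deviations ran from -0.0239 to 0.0396, and 0 were over 0.1. With the replicate number as a block the centred 0 h count was 1, and the block moved no other count by more than 1.5 times. The cause of these changes was not tested. With 2 libraries a group and an unknown number of bases behind each rate, a missed call says little about genes of low CPM.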
